A study of Mus musculus with 18 samples.

Results

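The enzymes that take amino acids apart and turn their nitrogen into urea were followed as a set of 43 genes among the 34932 genes of the deposited table, in liver, brain and testis of mice. The members are a fixed list of gene symbols: 4 enzymes of histidine breakdown, 5 of tyrosine, 5 of tryptophan, 2 of serine and threonine, 5 transaminases, 7 of the urea cycle, 5 of glutamine, ornithine and proline, 2 subunits of the branched chain dehydrogenase, 6 of methionine and transsulfuration, and 2 D-amino acid oxidases. All 43 were found by Ensembl gene identifier. The study compared mice under chronic restraint stress, a laboratory model of long-lasting strain in which an animal is held in a narrow space, with control mice. Each of the 6 groups (control or stress; liver, brain or testis) had 3 libraries of total RNA, which the series' design text calls biological replicates. The sources used here do not give the strain, the age, how long the restraint lasted or any further treatment. For the brain libraries the extraction text speaks of hippocampus and the labels of brain, the name kept in what follows.

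The liver is the main site where surplus amino acids are broken down. Transaminases and deaminases strip off the amino group, the carbon skeleton goes to glucose, fat or oxidation, and the urea cycle of periportal hepatocytes converts the freed ammonia to urea. Pericentral hepatocytes and astrocytes instead trap ammonia as glutamine through glutamine synthetase. Glucocorticoids and glucagon, hormones of stress and fasting, are textbook inducers of several of these enzymes, with tyrosine aminotransferase (Tat) and tryptophan 2,3-dioxygenase (Tdo2) as the classic liver examples. D-amino acid oxidases degrade D-serine and D-aspartate, which act at NMDA receptors in the brain.

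Libraries held 27.85 to 36.5 megacounts. The members took 2.81% to 3.22% of all liver counts. Their share was 0.246% to 0.298% in brain and 0.083% to 0.097% in testis. The labelled tissues matched their markers: 13 hepatocyte markers added up to no less than 88130 counts per 1 megacount (CPM) in every liver library, with 13.7 CPM as the highest sum in brain and 7.05 CPM in testis. In brain the lowest neuron sum was 8925 CPM, and in testis the lowest spermatid sum was 15440 CPM. Stress testis replicate 2 stood apart, with a Sertoli cell marker sum of 1835 CPM against 1069 to 1148 CPM in the other 5 testis libraries. Its testis macrophage sum was 163 CPM against 78.2 to 94.2 CPM, and its Leydig cell sum 595 CPM against 406 to 489 CPM. Spermatogonium, spermatid and peritubular myoid cell sums were also highest there, while its spermatocyte sum of 3531 CPM lay inside the range of the others. Stress brain replicate 3 carries a description code with the prefix of the control animals, while its title and treatment say stress. It was kept in the stress group, and values without it are given for the brain members with values per library that were tested. All tissues are bulk samples, so fewer cells of a type and less RNA per cell cannot be told apart.

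In control animals the set was a liver set. The level per length of transcript, in TPM (transcripts per 1 megatranscript), was highest in liver for 38 of the 43 members, and for the other 5 (Got1, Glul, Mat2a, Arg2 and Dao) in brain. Summed over the 43 members it was 24934, 24636 and 22789 TPM in the 3 control livers and 2978, 2900 and 2949 TPM in brain, and it was 712.3, 711.7 and 741.5 TPM in testis. On the edgeR scale, control liver against control brain gave 39 members higher and 1 lower of 42 tested, where 34.4% of all genes were higher and 45.6% lower. Liver against testis gave 41 higher and 1 lower of 42, against 34.5% and 54.0% of all genes. Brain against testis gave 18 higher and 9 lower of 33, against 41.2% and 47.0%. The member lower in liver was Arg2 in both cases.

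**Figure D1:**
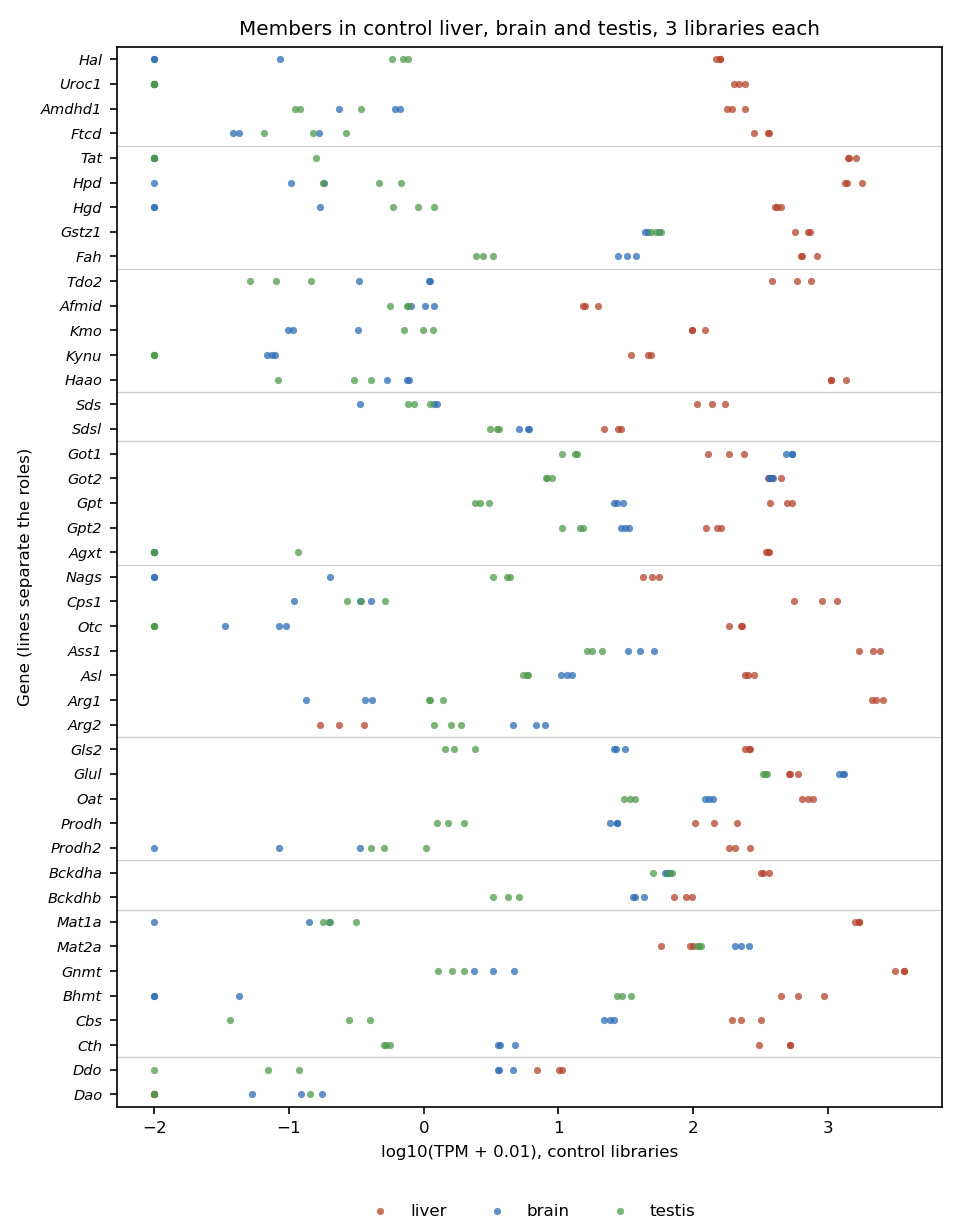
Level of each of the 43 members in the 9 control libraries, as log10(TPM + 0.01) on the horizontal axis, with genes on the vertical axis grouped by role and 1 point per library. Most liver points lie far to the right of the brain and testis points, and points at the left edge are libraries with 0 counts; Arg2, Glul, Got1 and Mat2a have their brain points to the right of liver.

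Among the enzymes of single amino acids, the liver levels spanned a wide range. Gnmt, glycine N-methyltransferase, had the highest mean, 3513 TPM. Next came the cytosolic arginase Arg1 with 2329 TPM and argininosuccinate synthetase Ass1 with 2116 TPM. At the low end were Arg2 with 0.245 TPM, Ddo with 9.22 TPM and the kynurenine formamidase Afmid with 16.9 TPM. Dao, D-amino acid oxidase, had 0 counts in all 6 liver libraries, where 3 counts would have been 0.0769 TPM in control liver. Several members had 0 counts in another tissue, so their liver excess is a lower bound set by 3 counts per library. Tat was at least 11400-fold higher in control liver than in control brain by this measure, urocanase Uroc1 at least 2450-fold and the peroxisomal transaminase Agxt at least 1920-fold. Ornithine transcarbamylase Otc was at least 3370-fold and kynureninase Kynu at least 987-fold higher in control liver than in control testis.

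Isozyme pairs were split between the tissues. Arg1 was at 2124, 2574 and 2289 TPM in control liver and at most 0.407 TPM in control brain, while the mitochondrial arginase Arg2 was at 0.226, 0.159 and 0.349 TPM in liver and 6.79, 4.62 and 7.95 TPM in brain. Arg2 had a log2 difference of -2.89 ± 0.44 for liver against brain (SE; edgeR adjusted p = 0.000302). For liver against testis it was -1.53 ± 0.41 (edgeR adjusted p = 0.00561, and 0.0572 with animal as a block), and without replicate 2 of both tissues the adjusted p was 0.067. Mat1a, the methionine adenosyltransferase of the adult liver, had 1670 TPM in liver, 0.106 in brain and 0.221 in testis. Its partner Mat2a, the form of other tissues, had 84.3 TPM in liver, 231 in brain and 110 in testis. Prodh2, hydroxyproline dehydrogenase, was at 217 TPM in liver and 0.133 TPM in brain, whereas the proline dehydrogenase Prodh was at 153 and 26.1 TPM. For the serine dehydratase Sds the mean was 138 TPM in liver, against 0.915 in brain and 0.895 in testis. Its relative Sdsl had 26.1, 5.68 and 3.39 TPM. Neither was called between brain and testis (edgeR adjusted p = 0.242 for Sds and 0.879 for Sdsl).

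Aspartate aminotransferases and glutamine synthetase reached liver-like or higher levels in brain. Got2, the mitochondrial aspartate aminotransferase, had 397 TPM in liver, 376 in brain and 8.41 in testis; its liver and brain libraries overlapped on the TPM scale, while edgeR called it higher in liver than in brain by 1.91 ± 0.15 (adjusted p = 4.2e-06). Its cytosolic counterpart Got1 had 186, 240 and 130 TPM in liver and 543, 542 and 490 TPM in brain. Glul, glutamine synthetase, had 596, 513 and 526 TPM in liver and 1316, 1209 and 1304 TPM in brain, with 342 TPM on average in testis. On the TPM scale the brain libraries of Got1, Glul and Mat2a thus all lay above the liver libraries. The edgeR scale, which trims extreme genes before it sets the library factors, differed from the TPM scale by a median of -1.83 (log2 TPM ratio minus edgeR value, liver against brain, over 4259 genes), and on it Got1 and Mat2a were not called (adjusted p = 0.194 and 0.129) while Glul was higher in liver by 0.61 ± 0.15 (edgeR adjusted p = 0.00465). Without replicate 2 of both tissues Glul was not called. The direction for Got1, Mat2a and Glul therefore depends on the scale, as does that of Mat2a between liver and testis. So does the call of Got2 between liver and brain. Alanine aminotransferases showed no such dependence: Gpt had 469, 27.9 and 2.69 TPM and Gpt2 144, 31.0 and 13.4 TPM in liver, brain and testis.

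A few members differed widely between brain and testis. In testis the betaine-homocysteine methyltransferase Bhmt had 30.4 TPM against 0.0109 TPM in brain, a log2 difference of -11.75 for brain against testis (edgeR adjusted p = 2.73e-09). Nags, which makes the activator of the first urea cycle step, had 3.92 TPM in testis and 0.064 TPM in brain (edgeR adjusted p = 1.57e-05). Cystathionine beta-synthase Cbs went the other way, with 23.9 TPM in brain and 0.227 TPM in testis (edgeR adjusted p = 7.87e-07). Ass1 and argininosuccinate lyase Asl, which recycle citrulline to arginine in many cells, stood at 41.2 and 11.5 TPM in brain and 18.4 and 5.73 TPM in testis, whereas Otc was at 0.0611 TPM in brain. The brain excess of Asl was no longer called with animal as a block (edgeR adjusted p = 0.0416 without and 0.0838 with it). Nor was it called with DESeq2 size factors, without the low-count filter, or without replicate 1 or 2 of both tissues. That of Ass1 was not called with DESeq2 size factors or without replicate 2 of both tissues. The branched chain subunits Bckdha and Bckdhb had 64.3 and 38.6 TPM in brain and 61.6 and 4.17 TPM in testis. The direction for Bckdha between brain and testis depended on the scale, with a log2 TPM ratio of 0.06 and an edgeR difference of -0.64 ± 0.12 (adjusted p = 0.000793).

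In stress liver the main edgeR test called 2 of the 4 histidine enzymes lower and no other member of the set. Hal, histidine ammonia-lyase, which releases ammonia from histidine in the first step, fell by 0.78 ± 0.13 on the log2 scale, to 0.583 of control. Amdhd1, imidazolonepropionase, the third step, fell by 0.75 ± 0.15, to 0.594 of control. Of the 41 members tested in liver (Arg2 with 4 to 8 counts and Dao with 0 were below the count filter), 0 were called higher and 2 lower, at an edgeR adjusted p under 0.05. Over all 14253 genes tested, 0.982% were called higher and 0.645% lower. DESeq2 called 5 members lower and 0 higher. Among the 23250 genes with any reads, which include any that DESeq2 left without an adjusted p, it called 370 lower and 449 higher. At an unadjusted edgeR p under 0.05 there were 10 members lower and 0 higher, where 8.37% and 8.78% of all genes passed. The median log2 fold change of the members was -0.07, beside -0.01 over all genes, and 27 of 41 were negative, beside 51.3% of genes.

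**Figure D2:**
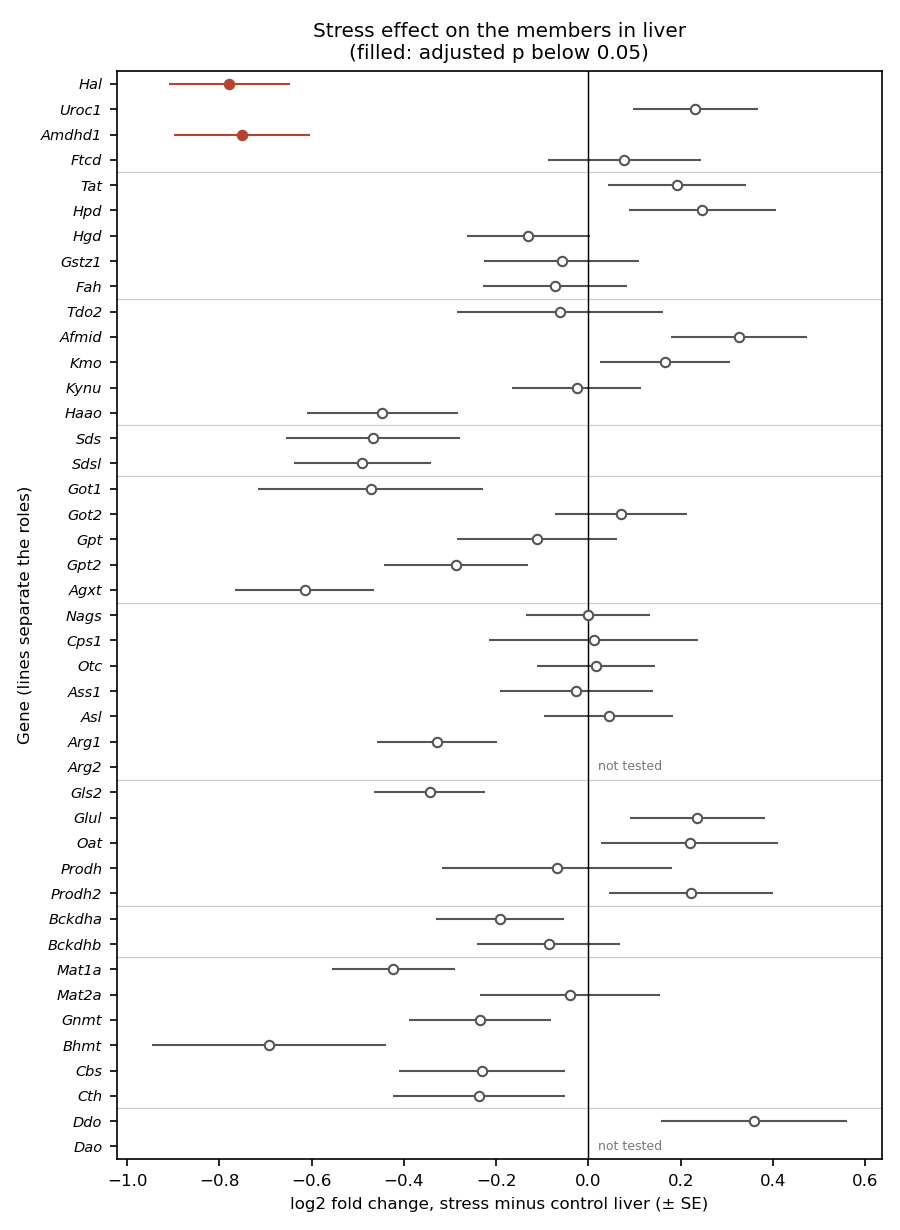
Log2 fold change of stress against control in liver for each member (horizontal axis, bars are the approximate SE of the edgeR fit), with genes on the vertical axis grouped by role. The filled points, Hal at -0.78 and Amdhd1 at -0.75, passed the adjusted threshold; the open points did not, and 6 of 6 in the methionine group lie left of 0.

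Hal stood at 477, 427 and 436 CPM in the control livers and 288, 253 and 239 CPM in the stress livers (edgeR adjusted p = 0.0268). Every stress library lay below every control library, and the gap was larger than the spread within either group. Amdhd1 stood at 255, 228 and 294 CPM in control and 173, 153 and 136 CPM in stress (edgeR adjusted p = 0.047). Its groups did not overlap either. The other enzymes of the pathway did not share this pattern: Uroc1, the second step, stood at 458, 367 and 380 CPM in control and 457, 496 and 463 CPM in stress (log2 fold change 0.23 ± 0.14, edgeR adjusted p = 0.425), and Ftcd, the last step, which passes the formimino group to folate, had 628, 603 and 447 CPM against 668, 574 and 529 CPM (0.08 ± 0.17, edgeR adjusted p = 0.857). In both of these the groups overlapped. Whether the change of Hal or Amdhd1 differed from that of Uroc1 was not tested. The calls depended on single libraries. Hal remained called without control replicate 1 (edgeR adjusted p = 0.0341) and not without any other single library (0.0592 to 0.152), while Amdhd1 was not called without any single library (0.0526 to 0.213), its log2 fold change staying between -0.84 and -0.65.

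Hal and Amdhd1 are neighbours on chromosome 10 (GRCm38 annotation), pointing at each other from opposite strands without overlap, with no other coding gene between them. The coding genes on either side, chosen after their values were seen, showed log2 fold changes near 0 in liver: Lta4h, leukotriene A4 hydrolase, -0.02 ± 0.11 (edgeR adjusted p = 0.958) and Ccdc38 -0.05 ± 0.58 (0.976), the latter at only 0.417 CPM in control. The 250 bases before the start of the 4 histidine genes are shown because 2 of the 4 were called in liver and 2 were not. They come from RefSeq on build GRCm38.p6, on the strand of the gene, at chr10:93488518-93488767 (plus strand) for Hal, chr10:93540034-93540283 (minus strand) for Amdhd1, chr6:90333039-90333288 (plus strand) for Uroc1 and chr10:76575398-76575647 (plus strand) for Ftcd. Capitals mark the letters TATAAA or their reverse complement.
Hal: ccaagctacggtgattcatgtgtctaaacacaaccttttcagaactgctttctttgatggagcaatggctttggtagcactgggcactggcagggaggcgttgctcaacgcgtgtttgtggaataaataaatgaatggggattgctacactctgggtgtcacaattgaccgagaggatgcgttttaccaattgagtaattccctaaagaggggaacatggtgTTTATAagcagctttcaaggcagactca
Amdhd1: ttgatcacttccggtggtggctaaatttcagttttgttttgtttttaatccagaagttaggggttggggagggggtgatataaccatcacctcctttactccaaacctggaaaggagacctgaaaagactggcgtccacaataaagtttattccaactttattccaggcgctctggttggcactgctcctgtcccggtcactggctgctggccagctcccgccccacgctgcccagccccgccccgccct
Uroc1: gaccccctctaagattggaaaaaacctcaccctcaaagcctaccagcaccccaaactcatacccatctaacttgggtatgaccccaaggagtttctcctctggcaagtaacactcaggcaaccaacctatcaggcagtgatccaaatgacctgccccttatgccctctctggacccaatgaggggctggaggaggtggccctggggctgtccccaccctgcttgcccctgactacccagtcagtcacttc
Ftcd: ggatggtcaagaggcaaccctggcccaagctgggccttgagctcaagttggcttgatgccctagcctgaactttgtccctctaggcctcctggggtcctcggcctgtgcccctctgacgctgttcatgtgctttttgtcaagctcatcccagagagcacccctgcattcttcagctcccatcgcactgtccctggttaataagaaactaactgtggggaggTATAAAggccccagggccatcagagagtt
The core promoter letters TATAAA, searched on both strands, were found at bases -28 to -23 of Hal (as TTTATA) and -29 to -24 of Ftcd, and not in this window of Amdhd1 or Uroc1. They occur in 12.4% of all 32851 promoters of the same length and in 6 of the 32 members that have an entry (Ftcd, Got2, Hal, Hgd, Mat2a and Tdo2). The glucocorticoid half-site AGAACA was in none of these 4 windows. It was in 4 of 32 members (Agxt, Bckdhb, Dao and Haao) beside 16.1% of all promoters. The full palindrome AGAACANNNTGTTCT, which contains 2 half-sites, was found in 0 of 32 members and 0.00913% of promoters, the cAMP response element TGACGTCA in 0 of 32 and 1.55%, and the C/EBP letters TTGCGCAA in 0 of 32 and 0.164%. The percentages are shares of promoter entries, while a member counts if any of its entries matches (36 entries for the 32 members). A match is a description of the letters only.

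**Figure D3:**
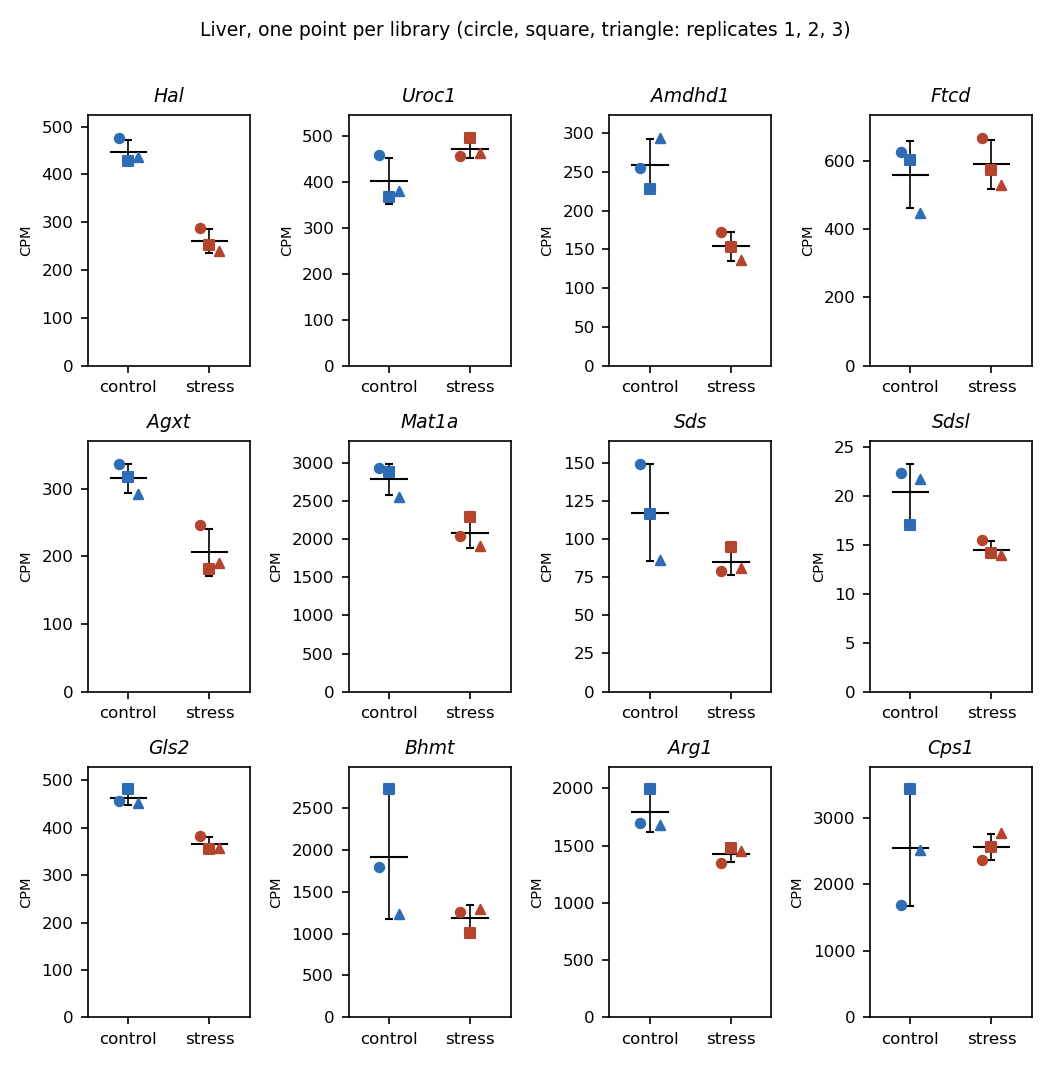
Normalised CPM of 12 members in the 3 control and 3 stress liver libraries (vertical axes start at 0; 1 point per library, horizontal line the mean, bar 1 SD). Hal, Amdhd1, Agxt, Mat1a, Sdsl, Gls2 and Arg1 have every stress library below every control library, and the control libraries of Cps1 and Bhmt spread far more widely than the stress libraries.

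The classic glucocorticoid targets of the set were not called by the test. Tat, the first enzyme of tyrosine breakdown, stood at 2106, 1808 and 1696 CPM in control liver and 1968, 2464 and 1977 CPM in stress liver (log2 fold change 0.19 ± 0.15, edgeR adjusted p = 0.56). Tdo2, the first enzyme of tryptophan breakdown, stood at 803, 1528 and 1146 CPM against 1302, 996 and 1032 CPM (-0.06 ± 0.22, edgeR adjusted p = 0.92). The groups of both overlapped, and the sign for Tdo2 turned positive without control replicate 2 (0.19) or stress replicate 2 (0.01). Further along tyrosine breakdown, 4-hydroxyphenylpyruvate dioxygenase Hpd had 0.25, homogentisate dioxygenase Hgd -0.13, maleylacetoacetate isomerase Gstz1 -0.06 and fumarylacetoacetase Fah -0.07, and 0 of 5 enzymes was called. In tryptophan breakdown Afmid had 37.9, 29.1 and 26.8 CPM in control and 41.5, 37.9 and 38.2 CPM in stress (0.33 ± 0.15, edgeR adjusted p = 0.298), the only member tested whose stress livers all lay above the control livers. Haao, 3-hydroxyanthranilate dioxygenase, had 905, 678 and 640 CPM against 604, 527 and 498 CPM (-0.45 ± 0.16, edgeR adjusted p = 0.205). Kynurenine monooxygenase Kmo was at 0.17 and Kynu at -0.03.

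The serine dehydratases and 4 of the 5 transaminases had negative values that did not pass. Sds, which turns serine to pyruvate and is known as a gene of fasting, had 149, 116 and 86.1 CPM in control and 79.0, 94.5 and 80.7 CPM in stress (-0.47 ± 0.19, edgeR adjusted p = 0.246), with overlap between the groups. Sdsl, its relative and neighbour in the genome, had 22.4, 17.0 and 21.7 CPM against 15.5, 14.1 and 13.9 CPM without overlap (-0.49 ± 0.15, edgeR adjusted p = 0.136). Agxt, which converts glyoxylate to glycine in peroxisomes, came closest to the threshold of the members not called. It stood at 336, 317 and 292 CPM in control and 246, 182 and 189 CPM in stress, again without overlap (-0.61 ± 0.15, edgeR adjusted p = 0.0757), and it was called without the filter on low counts (0.0206) and by DESeq2 (adjusted p = 0.00499). Got1 had -0.47, Gpt2 -0.29, Gpt -0.11 and Got2 0.07, all with overlapping groups.

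The urea cycle itself showed no call, and its median log2 fold change was 0.00 over 6 tested members with 3 values above and 3 below 0. Cps1, carbamoyl phosphate synthetase, the first committed step, stood at 1691, 3428 and 2515 CPM in control and 2369, 2556 and 2769 CPM in stress (0.01 ± 0.23, edgeR adjusted p = 0.989). The control livers spanned a range that enclosed the stress livers, and its sign was negative without control replicate 1 (-0.21) or stress replicate 3 (-0.05). Nags (0.00), Otc (0.02), Ass1 (-0.03) and Asl (0.04) were all within 0.05 of 0 with an SE of 0.13 to 0.17. Arg1, the last step, which splits arginine to urea and ornithine, stood apart from these: 1694, 1991 and 1684 CPM in control and 1351, 1476 and 1450 CPM in stress, without overlap (-0.33 ± 0.13, edgeR adjusted p = 0.236).

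Glutamine enzymes pointed in opposite directions without passing the test. Gls2, the liver glutaminase that feeds ammonia into the urea cycle, had 457, 481 and 453 CPM in control and 384, 355 and 357 CPM in stress, without overlap (-0.34 ± 0.12, edgeR adjusted p = 0.184). Glul had 1071, 893 and 870 CPM against 1248, 982 and 1109 CPM with overlap (0.24 ± 0.15, edgeR adjusted p = 0.457). Ornithine aminotransferase Oat had 0.22, Prodh -0.07 and Prodh2 0.22. The branched chain subunits Bckdha and Bckdhb had -0.19 and -0.09.

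All 6 members of methionine and transsulfuration had negative values, and 0 were called. Mat1a, which makes S-adenosylmethionine, had 2936, 2881 and 2559 CPM in control and 2047, 2292 and 1907 CPM in stress, without overlap (-0.42 ± 0.13, edgeR adjusted p = 0.145; DESeq2 adjusted p = 0.0451). Bhmt, which remakes methionine from homocysteine, had 1796, 2718 and 1238 CPM against 1256, 1010 and 1294 CPM (-0.69 ± 0.25, edgeR adjusted p = 0.204). Control replicate 2 was the high library there, and control replicate 3 lay inside the stress range. Bhmt was called without the filter on low counts (edgeR adjusted p = 0.0324) and by DESeq2 (0.0466). Gnmt had -0.23, Cbs -0.23, cystathionine gamma-lyase Cth -0.24 and Mat2a -0.04. Ddo, D-aspartate oxidase, had 17.2, 15.9 and 10.4 CPM in control liver and 15.9, 18.9 and 20.9 CPM in stress liver (0.36 ± 0.20, edgeR adjusted p = 0.404), with overlap.

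In all, 9 of 41 members had groups that did not overlap, beside 23.0% of all genes. In 8 of them every stress liver lay below every control liver, beside 11.1% of genes. The 8 were Hal, Amdhd1, Agxt, Sdsl, Mat1a, Gls2, Haao and Arg1. The control livers varied more than the stress livers: the coefficient of variation was larger in control for 32 of 41 members, beside 62.6% of genes, with medians of 15.9% and 9.62% for the members and 17.6% and 13.2% for all genes. Beside these liver values, Kupffer cell markers summed to 86.4 to 105 CPM in control and 184 to 225 CPM in stress, with 8 of 11 called higher and none at 0. Hepatocyte markers overlapped, at 100200 to 116700 CPM in control and 88130 to 110800 CPM in stress, with 0 of 13 higher and 1 lower. Periportal markers summed to 5163 to 5558 CPM and then 7723 to 8763 CPM, with 1 of 11 called, higher (Pck1, a gluconeogenic enzyme). Of these 11 markers 5 were positive and 6 negative, with a median log2 fold change of -0.02 and Pck1 the highest at 1.19. Pericentral markers summed to 7377 to 9657 CPM and then 10240 to 11530 CPM, with 0 of 15 called. Cholangiocyte markers summed to 45.2 to 54.2 CPM in control and 27.8 to 35.5 CPM in stress, with 0 of 5 tested called, and liver endothelium markers to 119 to 195 CPM and 81.9 to 141 CPM, with 0 of 11 called. No marker of these 6 lists was at 0. The part of these differences in the values of the members was not tested.

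Outside the 43, genes of related lists were counted in stress liver. Their calls stand beside 0.982% of all genes called higher and 0.645% called lower by edgeR. Among 62 tested genes of further amino acid breakdown, edgeR called 1 higher and 0 lower, and the median log2 fold change stood at -0.04. The 1 was Acmsd, which diverts a tryptophan metabolite away from NAD synthesis. Acmsd rose from 19.6, 16.9 and 9.40 CPM to 55.8, 48.1 and 54.1 CPM (1.78 ± 0.24, edgeR adjusted p = 0.0115). It acts directly after Haao, and the stress libraries of the pair thus lay on opposite sides of their controls. Of 19 tested transporters, Slc16a10, which carries aromatic amino acids, rose from 85.7, 80.2 and 90.6 CPM to 130, 127 and 134 CPM (0.61 ± 0.11, edgeR adjusted p = 0.0359), and 0 were called lower. Of 10 tested genes of amino acid synthesis 0 were called by edgeR. Where the unadjusted p was taken at 0.05, 2 were higher and 0 were lower, beside 8.78% and 8.37% of all genes. Among 22 regulators tested, edgeR called 1 higher and 1 lower. The one called lower was Atf4, the transcription factor of the amino acid response, which fell from 299, 288 and 293 CPM to 111, 190 and 116 CPM (-1.08 ± 0.20, edgeR adjusted p = 0.041).

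In brain 26 members were tested and 0 were called by edgeR, where 0.00566% of the 17668 genes tested were called higher and 0.0% lower. At an unadjusted edgeR p under 0.05 there were 3 members higher and 0 lower, beside 4.16% and 3.38% of genes. DESeq2 called 1 member higher, with 84 higher and 36 lower among the 27949 genes with any reads. The 3 with an unadjusted edgeR p under 0.05 were Ddo, Gpt2 and Gpt. In 6 members every stress library lay above every control library and in 0 below, beside 7.21% and 6.64% of genes. The median log2 fold change was -0.01, beside 0.00 over all genes, and 15 of 26 were negative, beside 50.9% of genes.

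The largest value belonged to Ddo, the enzyme that degrades D-aspartate. It stood at 3.18, 3.21 and 4.19 CPM in the control brains (104 to 151 counts) and at 8.27, 8.96 and 8.94 CPM in the stress brains (266 to 308 counts). The groups were far apart and each was narrow. Its log2 fold change was 1.30 ± 0.17, or 2.47-fold, with an edgeR adjusted p of 0.28. With the replicate number as a block the edgeR adjusted p was 0.037, and by DESeq2 it was 1.81e-07. The pairing behind that block was read from these same libraries, and the sample codes name no pairs of control and stress animals. Over all 11 alternatives the adjusted p ranged from 1.81e-07 to 0.974 and the log2 fold change from 1.14 to 1.45. Without stress replicate 3, the library with the control code, the log2 fold change was 1.29 (edgeR adjusted p = 0.683). The choroid plexus marker sum was 10.1 to 16.9 CPM in control and 19.2, 543 and 364 CPM in the stress replicates 1, 2 and 3, with 9 of 9 tested markers positive, 0 called and none at 0. In the same stress replicates 1, 2 and 3 Ddo was at 8.27, 8.96 and 8.94 CPM. Oligodendrocyte sums overlapped, at 3794 to 5975 CPM and 2599 to 5754 CPM, and astrocyte sums were 1903 to 2158 CPM in control and 2259 to 2517 CPM in stress, with 0 of 9 called. The part of the choroid plexus and astrocyte differences in the values of the members was not tested.

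**Figure D4:**
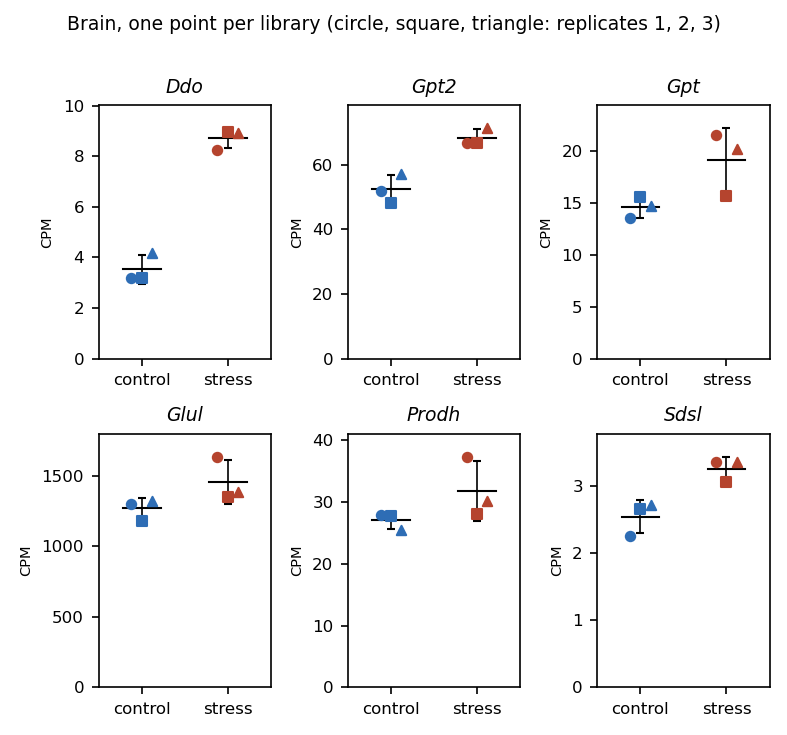
Normalised CPM of the 6 members whose stress brain libraries all lay above the control libraries (vertical axes start at 0; 1 point per library, horizontal line the mean, bar 1 SD). Ddo shows the widest separation, from at most 4.19 CPM in control to at least 8.27 CPM in stress; Gpt and Prodh have their closest libraries almost touching.

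Dao, the oxidase of D-serine, was below the count filter in brain, at 0.119, 0.0309 and 0.0822 CPM in control and 0.249, 0.235 and 0.372 CPM in stress, which is 1 to 12 counts a library. Its stress libraries too lay above the control libraries, at counts that allow no comparison by the main test. Of the transaminases, Gpt2, the mitochondrial alanine aminotransferase, had 52.0, 48.2 and 57.2 CPM against 66.7, 66.9 and 71.4 CPM (0.38 ± 0.08, edgeR adjusted p = 0.402, 0.103 with the replicate block). Gpt, the cytosolic form, had 13.5, 15.6 and 14.6 CPM against 21.5, 15.7 and 20.1 CPM (0.39 ± 0.14, edgeR adjusted p = 0.613). Without stress replicate 3 they were at 0.35 each (edgeR adjusted p = 0.803 and 0.828). Neither group pair overlapped, though stress replicate 2 of Gpt was only just above the highest control. The aspartate aminotransferases did not share this: Got1 and Got2 both had log2 fold changes of -0.02 with an SE of 0.07.

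Glul in brain had 1302, 1183 and 1323 CPM in control and 1635, 1350 and 1387 CPM in stress (0.20 ± 0.10, edgeR adjusted p = 0.692). Stress replicate 1 was the high library. Prodh had 27.9, 27.7 and 25.5 CPM against 37.3, 28.0 and 30.2 CPM (0.24 ± 0.12, edgeR adjusted p = 0.699), and Sdsl 2.26, 2.65 and 2.72 CPM against 3.36, 3.05 and 3.36 CPM (0.36 ± 0.19, edgeR adjusted p = 0.7). These were the remaining members without overlap. Without stress replicate 3 the log2 fold changes were 0.23 for Glul, 0.27 for Prodh and 0.33 for Sdsl (edgeR adjusted p = 0.835, 0.836 and 0.862). Arg2, the arginase found in brain, had 2.89, 1.94 and 3.46 CPM against 3.42, 2.65 and 3.55 CPM with overlap (0.21 ± 0.26, edgeR adjusted p = 0.884, and 0.13 with 0.961 without stress replicate 3). The other urea cycle members tested had -0.15 for Ass1, -0.07 for Asl and -0.29 for Cps1, the last at 4 to 21 counts. Of the remaining 14 tested members, all with overlapping groups, the values ran from -0.62 for Afmid to 0.45 for Cth.

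Further genes of amino acid breakdown gave 0 calls among 61 tested in brain. Beside 4.16% and 3.38% of all genes, 3 were higher and 2 lower at an unadjusted edgeR p under 0.05. The 4 with the smallest p were Bcat2, the mitochondrial branched chain aminotransferase (0.32), Amt of the glycine cleavage system (0.25), the kinase Bckdk, which inhibits the branched chain dehydrogenase (-0.24), and the lysine enzyme Aass (0.47). Of 13 regulators tested 0 were called. At an unadjusted edgeR p under 0.05, 4 were higher, beside 4.16% of all genes, and 0 lower, beside 3.38%. The 4 were Ddit4 (0.41), Creb1 (0.20), Ppara (0.53) and Klf15 (0.31). Ddit4 and Klf15 are known glucocorticoid targets, and a part of glucocorticoids in these values was not tested.

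In testis 32 members were tested and 0 were called by edgeR, where 0.00502% of the 19915 genes tested were called higher and 0.0151% lower. At an unadjusted edgeR p under 0.05 there were 2 higher and 0 lower, beside 6.43% and 5.3% of genes. DESeq2 called 0 members, with 30 higher and 30 lower among the 31683 genes with any reads. In 3 members every stress library lay above every control library and in 0 below, beside 10.3% and 10.7% of genes. The median log2 fold change was 0.11, beside 0.01 over all genes, and 9 of 32 were negative, beside 47.9% of genes. Without stress replicate 2 the member median was 0.034, beside -0.003 over all genes. Without any other single library it was 0.081 to 0.177. Hal, at 36 to 93 counts, had 1.30, 1.55 and 1.66 CPM in control and 3.13, 2.73 and 2.36 CPM in stress (0.86 ± 0.23, edgeR adjusted p = 0.422). Afmid had 0.794, 1.05 and 1.05 CPM against 1.21, 2.04 and 1.67 CPM (0.76 ± 0.30, edgeR adjusted p = 0.422). Fah had 2.81, 2.31 and 2.01 CPM against 2.99, 3.22 and 3.07 CPM (0.38 ± 0.21, edgeR adjusted p = 0.468). These were the 3 members without overlap. Ass1 had 15.99, 17.1 and 20.2 CPM in control and 14.4, 9.74 and 16.6 CPM in stress (-0.39 ± 0.19, edgeR adjusted p = 0.441), and Gstz1 38.9, 35.8 and 32.1 CPM against 41.4, 43.7 and 38.6 CPM (0.21 ± 0.11, edgeR adjusted p = 0.443). In Sdsl, with 2.13, 2.17 and 1.82 CPM against 2.49, 4.74 and 2.15 CPM (0.61 ± 0.31, edgeR adjusted p = 0.449), the high value was that of stress replicate 2, the library with high sums for several cell types. Without that library Sdsl was at 0.18, Ass1 at -0.20, Hal at 0.85, Afmid at 0.57, Fah at 0.35 and Gstz1 at 0.16, with edgeR adjusted p of 0.367 to 0.85. The 2 members with the highest levels per length in control testis, Glul and Mat2a, were at 0.02 ± 0.08 and -0.08 ± 0.09.

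Among 57 further genes of amino acid breakdown in testis 0 were called. Beside 6.43% and 5.3% of all genes, 2 were higher and 2 lower at an unadjusted edgeR p under 0.05. They were Bcat2 (0.58) and Tst, a sulfurtransferase (0.51), and Dbt (-0.48) and Dld (-0.33), which are subunits of the branched chain dehydrogenase complex. Of 15 regulators tested 0 were called by edgeR, while 0 were higher and 1 was lower where the unadjusted p was taken at 0.05. The glucocorticoid receptor gene Nr3c1 had the smallest p among them (-0.37), followed by Foxa3 (-0.64), Ddit4 (0.53) and Cebpa (0.56).

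The effect of stress on Hal differed between liver and testis. In the fit over the 12 libraries of both tissues the liver effect lay 1.68 ± 0.22 below the testis effect (log2 units, edgeR adjusted p = 0.0134, or 0.0411 with animal as a block). It was the 1 member called of 42 tested, where 0.0748% of genes were called higher and 0.0795% lower. At an unadjusted edgeR p under 0.05 there were 0 members higher and 4 lower, beside 5.05% and 8.84% of genes. All 3 stress livers lay below their controls and all 3 stress testes above theirs, at levels of 84.4 to 159 TPM in liver and, in control testis, 0.676 TPM on average. The call was kept without stress replicate 2 of both tissues (edgeR adjusted p = 0.0192) and lost without any other replicate (0.0505 to 0.09). The next smallest p in this pair of tissues belonged to Sdsl (-1.15 ± 0.34, edgeR adjusted p = 0.177), Mat1a (-0.99 ± 0.39, 0.273) and Uroc1 (-3.07 ± 1.22, 0.295), the last resting on 0 to 2 counts in testis.

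**Figure D5:**
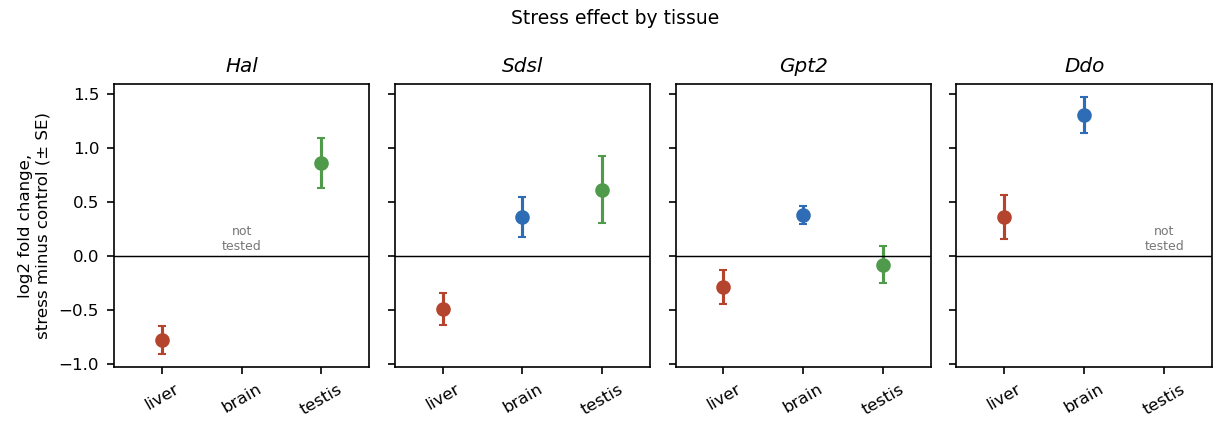
Log2 fold change of stress against control (vertical axis, bars are the approximate SE) for 4 members in the 3 tissues; Hal in brain and Ddo in testis had too few counts. Hal lies at -0.78 in liver and 0.86 in testis, a difference that was called (edgeR adjusted p = 0.0134). Sdsl and Gpt2 lie below 0 in liver and above 0 in brain, and for these 2 genes the difference was not called.

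Between liver and brain 0 of 42 members differed in their stress effect at the threshold, where 0.1% of genes were called higher and 0.0949% lower by edgeR. At an unadjusted p under 0.05 there were 1 higher and 3 lower, beside 5.89% and 5.72% of genes. The smallest p belonged to Sdsl, for which the liver effect lay 0.84 ± 0.20 below the brain effect (edgeR adjusted p = 0.114). Gpt2 followed with -0.66 ± 0.19 (edgeR adjusted p = 0.173), Ddo with -0.94 ± 0.28 (0.184) and Afmid with 0.94 ± 0.34 (0.301). Without stress replicate 3 of both tissues these 4 values were -0.79, -0.70, -1.01 and 0.76, with edgeR adjusted p of 0.417 to 0.664. The 2.47-fold value of Ddo in brain thus stood beside 1.28-fold in liver without a called difference. Between brain and testis 0 members and 0 of 22391 genes were called by edgeR (0.0%). At an unadjusted p under 0.05 there were 0 members higher and 3 lower of 35 tested, beside 4.05% and 5.38% of genes. Afmid (-1.39 ± 0.50, edgeR adjusted p = 0.477), Fah (-0.53 ± 0.24, 0.524), Gstz1 (-0.34 ± 0.16, 0.526) and Gpt2 (0.46 ± 0.21, 0.533) had the smallest p there, and without stress replicate 3 of both tissues they were at -1.16, -0.51, -0.36 and 0.41.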

How the data were processed

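RNA was sequenced from 18 mouse libraries, 3 per group. Libraries came from a stranded total RNA kit, per the labels' protocols, and build mm39 is named per the submitters' processing notes. The sources used here name no aligner, counter or strand setting. The authors deposited whole-number counts per gene, with FPKM and TPM made from the same counts and 1 length per gene; TPM recomputed from the deposited counts and FPKM was checked against the deposited TPM. The labels speak of biological replicates. Symbols came from GENCODE mouse release 21 by identifier (34362 named, 570 not), and promoter sequence from RefSeq, which had an entry for 32 of 43 members. That annotation is on another build than the labels name, so its positions serve only for gene order and sequence. On it 17 members overlap a gene on the opposite strand, and reads of such pairs may not be told apart. The 17 are Hpd, Hgd, Gstz1, Afmid, Kmo, Sds, Got2, Nags, Arg2, Gls2, Glul, Prodh, Bckdha, Bckdhb, Mat2a, Gnmt and Bhmt. Hal, Amdhd1, Agxt and Ddo are not among them.

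The effect of stress was tested tissue by tissue by the quasi-likelihood test of edgeR 4.0.16 (R 4.3.3; low-count filter at its defaults, TMM factors, Benjamini-Hochberg adjustment over all genes tested, threshold 0.05), and differences of effect as an interaction. The SE is the log2 fold change divided by the root of the F statistic. CPM used TMM factors for tested genes and library size alone for genes below the filter and for marker sums. Levels between genes and tissues used the deposited TPM. Alternatives were DESeq2 1.42.0 and its size factors, limma 3.58.1 on log2(TPM + 1), no filter, a replicate block and each library left out. Sample codes recur across tissues, so animal was the block between tissues. The deviations of same-coded libraries of different tissues from their group means had correlations of only -0.022 to 0.082. The deviations of same-numbered control and stress libraries from their group means had correlations of 0.305, 0.167 and 0.439 in brain. They were 0.187, 0.053 and -0.001 in liver and 0.077, 0.068 and -0.088 in testis. The pairing in brain was read from the same libraries, and the codes name no pairs of control and stress animals. Scripts were tested on simulated data. The members and lists were chosen with earlier results of these data known. Values per library are given for members called, for the 6 members with the smallest p in each tissue, and for Tat, Tdo2, Cps1, Arg1, Sds and Glul in liver and Ddo, Dao, Glul and Arg2 in brain. Values per library of Uroc1, Ftcd, Afmid, Haao, Bhmt and Ddo in liver were added after they were seen. From the related lists the called genes are named, or the 4 with the smallest p (a result of the regulator list in liver is not reported here), and between tissues the members called or the 4 with the smallest p.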

Additional observations from a re-analysis of the deposited data

Results flagged for a closer look

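The stress effect on Hal, the enzyme that deaminates histidine, differed between liver and testis by -1.68 on the log2 scale (liver minus testis, SE 0.22, edgeR adjusted p = 0.0134), a difference between tissues under the same contrast. All 3 stress livers lay below the control livers and all 3 stress testes above the control testes. The testis side rests on 36 to 93 counts a library, and within testis alone Hal did not pass the test (edgeR adjusted p = 0.422).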

How the results depend on the processing

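In liver the count of members called lower was 2, with 2 also under DESeq2 size factors, 3 with the replicate block (Agxt added), 4 without the low-count filter, 1 with limma on log2(TPM + 1), 5 with DESeq2, and 0 to 1 when single libraries were left out. In brain the count of members called higher was 0, and 1 with the replicate block or DESeq2 (Ddo each time). In testis it was 0 under every alternative run. For liver minus testis the count called lower was 1, and 0 to 1 with single replicates left out. In control liver against brain the count called lower was 1, and 4 with limma on log2(TPM + 1); against testis it was 1, 0 with animal as the replicate block, and 0 to 1 with a replicate left out. Values that changed sign were those of Tdo2 (-0.27 to 0.19) and Cps1 (-0.21 to 0.29) in stressed liver with single libraries left out, Got1 (-1.54) and Mat2a (-1.48) in liver against brain and Mat2a (-0.42) in liver against testis with limma on log2(TPM + 1), and Sdsl in brain against testis with DESeq2 size factors (-0.13) or with single replicates left out (-0.10 to 0.14). The cause was not tested. Over all genes, liver had 140 calls higher and 92 lower, against 450 and 408 without the filter, 449 and 370 with DESeq2, 261 and 214 with the replicate block, and 90 and 53 with limma; brain had 1 and 0, against 17 and 5 with the block, 2 and 0 without the filter, and 84 and 36 with DESeq2; testis had 1 and 3, against 10 and 15 without the filter, 2 and 4 with the block, 1 and 1 with limma, and 30 and 30 with DESeq2. Glul (edgeR 0.61 in liver against brain) had a log2 TPM ratio of -1.23, and Bckdha (edgeR -0.64 in brain against testis) one of 0.06. The other values of the members carried through these alternatives, Glul and Bckdha between tissues not among them, kept their direction, 608 on the same side of the threshold, 9 now past it and 23 no longer past it. Leaving out a library leaves 2 in its group. The replicate block changed the call of Agxt in liver (edgeR adjusted p = 0.0482), where the libraries share only a number, of Ddo in brain, of Arg2 between liver and testis and of Asl between brain and testis. Dao lay below the count filter in every tissue and was not tested for an effect of stress.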
